A study of Mus musculus with 8 samples.

Results

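The genes described here encode the proteins of the basement membrane of the mouse heart. There are 9 of them, chosen by symbol among the 32285 genes of the files, and each symbol was found once: Col4a1 and Col4a2 (the chains of the common type IV collagen), Col15a1 (a collagen that ties basement membranes to the surrounding matrix), Lama2, Lama4, Lamb1 and Lamc1 (laminin chains), Nid1 (nidogen, a linker protein) and Hspg2 (perlecan, a large heparan sulfate proteoglycan). Col1a1, a chain of the fibrillar type I collagen, is given beside them only as a reference.

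The hearts came from male C57BL/6J mice that were 8 weeks old at surgery. The mice carried no engineered allele in the labels and had either a sham operation or transverse aortic constriction (TAC), a narrowing of the aortic arch that loads the left ventricle, and hearts were taken 2, 4 or 6 weeks after TAC (TAC-2w, TAC-4w, TAC-6w). The labels give no time after surgery for the sham hearts. Each of the 4 conditions had 1 single-cell RNA-seq (scRNA) library and 1 section for spatial transcriptomics (ST), in which a spot is a small region that can hold several cells. With 1 library and 1 section per condition there was no test between conditions, and intervals printed for them cover counting error only. The labels describe a preparation of nuclei, whereas the methods of the study describe enzymatically dissociated cells; the barcodes are called cells here.

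A basement membrane is a thin sheet of matrix on which endothelium rests and which wraps cardiomyocytes, pericytes, smooth muscle and nerve. Laminins, each a trimer of an alpha, a beta and a gamma chain, bind receptors on the cell and form a network at its surface, type IV collagen forms a second network that resists stretch, and nidogen and perlecan join the networks. In striated muscle the laminin alpha chain at the fibre surface is encoded mainly by Lama2, whose loss causes a muscular dystrophy, and in vessels an alpha chain is encoded by Lama4.

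The scRNA libraries held 28793316 to 86671674 unique molecular identifiers (UMIs, counted molecules) in 5854 to 10275 barcodes, of which 5399 to 7965 were kept after filters on genes, UMIs, mitochondrial share and called doublets. Between 8 and 19 barcode sequences were shared by any pair of libraries. The sections held 25996378 to 48754396 UMIs in 1228 to 2193 spots, and mitochondrial genes took 42.2% to 51.5% of them. Cells were clustered without the 9 genes, Col1a1 and the 29 further basement membrane genes described below, and clusters were named from fixed markers. Fibroblast-like cells numbered 4480, 3226, 432 and 2871 in the sham library and those of 2, 4 and 6 weeks after TAC, an order kept for all values listed below, endothelial cell-like cells 492, 571, 482 and 198, and mural cell-like cells (pericytes and smooth muscle) 105, 91, 7 and 19. In their own class, 6 of 6 fibroblast and 6 of 6 endothelial markers were above 0 in every library, whereas 2 of 8 mural markers were at 0 in the mural cell-like cells of the TAC-4w library and 2 of 8 in those of the TAC-6w library. The TAC-4w library stood apart in makeup, with 2424 B cell-like cells against 156 to 915 in the other libraries. Its 7 mural cell-like cells are left out of what follows, so that mural values rest on 3 libraries. RNA of other cells was present in the classes: the summed level of 6 fibroblast markers in endothelial cell-like cells was 1852, 1448, 339 and 337 counts per 1e6 UMIs (CPM), and that of 6 red blood cell markers was 10493, 8017, 2210 and 165 CPM. The part of this RNA in the results was not tested unless a value is given beside them.

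Type IV collagen and perlecan were carried by both endothelium and fibroblasts, whereas the laminin chains Lama2, Lamb1 and Lamc1, nidogen and Col15a1 were mainly fibroblast transcripts. Levels are in CPM, the UMIs of a gene per 1e6 UMIs of the class in that library. They are not divided by transcript length, so that a gene is compared between cell types and not with another gene. Cell types were compared with edgeR's quasi-likelihood test on UMIs summed by class and library, with the library as a term and Benjamini-Hochberg adjustment over 12573 genes, and a call is an adjusted p under 0.05. Replicates here are the 4 libraries, 1 from each condition, and the library term takes out differences in level between them. The spread is thus that of the class differences between libraries, in which animal, condition and batch cannot be told apart. Between endothelial cell-like and fibroblast-like cells, 1 of 9 genes was called higher in endothelium, where 20.6% of all genes were, and 5 of 9 were called lower, where 25.2% of all genes were. The median log2 difference of the 9 genes was -1.71, against -0.05 over all genes tested.

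Col4a1 measured 726, 1221, 1592 and 1319 CPM in endothelial cell-like cells of the sham library and of those at 2, 4 and 6 weeks. Its level in fibroblast-like cells was 818, 903, 517 and 1115 CPM, and in mural cell-like cells it was 605, 910 and 615 CPM in the sham, TAC-2w and TAC-6w libraries. The ranges of the 3 classes overlapped, and the sham library was the only one in which fibroblast-like cells were above endothelial cell-like cells. The log2 difference of endothelium from fibroblasts was 0.38 (SE 0.29, n = 4 libraries, edgeR adjusted p = 0.314). Against fibroblasts, mural cell-like cells differed by -0.21 (SE 0.32, edgeR adjusted p = 0.672), so that for Col4a1 the order endothelial, fibroblast, mural had no neighbours that differed beyond their spread.

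Col4a2 encodes the partner chain of Col4a1 in the same triple helix. It measured 344, 592, 863 and 897 CPM in endothelial cell-like cells, 280, 334, 210 and 525 CPM in fibroblast-like cells, and 318, 521 and 369 CPM in mural cell-like cells. Endothelium was above fibroblasts in each of the 4 libraries, although the ranges over libraries overlapped. The log2 difference was 0.84 (SE 0.31, edgeR adjusted p = 0.0494), the only call of a gene higher in endothelium. This call sat at the threshold: without the TAC-2w, TAC-4w or TAC-6w library the adjusted p was 0.104, 0.128 or 0.0689, and without the library term it was 0.0818. In fibroblast-like cells 2.92, 2.70, 2.46 and 2.12 UMIs of Col4a1 were counted per UMI of Col4a2 over the 4 libraries. In endothelial cell-like cells the ratio was 2.11, 2.06, 1.84 and 1.47, below that of fibroblasts in every library, and in mural cell-like cells it was 1.90, 1.75 and 1.67.

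Both collagen genes have listed start sites within 22 bases of each other on chromosome 8 and are read in opposite directions. The annotated genes overlap, with Col4a1 at chr8:11198423-11312889 and Col4a2 at chr8:11312805-11449287. The listed Col4a1 start site used here, 11312826, lies inside the annotated span of that gene. In the RefSeq table (GRCm38.p6) the stretch between and including the start sites is chr8:11312805-11312826, printed on the plus strand with the match to the GC box motif GGGCGG in capitals. It lies downstream of both start sites, just inside both genes, and is shown because it lies between the starts of this pair:
Col4a1 and Col4a2 start sites: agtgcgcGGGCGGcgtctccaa
The pair of genes had a correlation of 0.947 over 45 sums by cell type and library on the log2(CPM + 1) scale, a description of sums that share libraries and depth.

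Hspg2, the proteoglycan core, measured 346, 394, 396 and 553 CPM in endothelial cell-like cells and 269, 280, 163 and 519 CPM in fibroblast-like cells. In mural cell-like cells its level was 178, 175 and 138 CPM, below the endothelial level in each of the 3 libraries. The log2 difference between mural and endothelial cell-like cells was -1.21 (SE 0.31, edgeR adjusted p = 0.0144), and the endothelial and fibroblast levels differed by 0.40 (SE 0.26, edgeR adjusted p = 0.234). The call against mural cells was lost without the TAC-2w library (edgeR adjusted p = 0.0615). Mural and fibroblast-like cells differed by -0.80 (SE 0.30, edgeR adjusted p = 0.0696).

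Lama2, the laminin alpha chain of muscle fibres, measured 339, 368, 230 and 376 CPM in fibroblast-like cells. Its level in endothelial cell-like cells was 11.7, 10.8, 1.79 and 3.50 CPM, from 39, 38, 8 and 3 UMIs. These groups lay far apart, with a log2 difference of -5.79 (SE 0.37, edgeR adjusted p = 1.30e-06). In mural cell-like cells Lama2 was at 41.8, 29.4 and 7.69 CPM, from 49, 33 and 1 UMIs, and mural cell-like cells were above endothelial cell-like cells by 2.11 on the log2 scale (SE 0.43, edgeR adjusted p = 0.00443). The last call was lost when called doublets were kept (log2 difference 0.65, edgeR adjusted p = 0.427).

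Lama4, the laminin alpha chain of vessels, measured 121, 160, 132 and 127 CPM in endothelial cell-like cells and 199, 207, 105 and 197 CPM in fibroblast-like cells. Fibroblasts were above endothelium in 3 of 4 libraries, and the log2 difference of endothelium from fibroblasts was -0.48 (SE 0.24, edgeR adjusted p = 0.135). That difference passed the threshold without the TAC-4w library (-0.70, edgeR adjusted p = 0.0170). Mural cell-like cells held 54.6, 32.95 and 15.4 CPM, from 64, 37 and 2 UMIs, lower than fibroblasts by a log2 difference of -2.20 (SE 0.32, edgeR adjusted p = 0.000694). The balance of the alpha chains set the classes apart. In fibroblast-like cells 1.71, 1.78, 2.19 and 1.91 UMIs of Lama2 were counted per UMI of Lama4, in endothelial cell-like cells 0.0968, 0.0671, 0.0135 and 0.0275, and in mural cell-like cells 0.766 and 0.892 in the sham and TAC-2w libraries.

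Upstream sequences are shown for Hspg2, which endothelium and fibroblasts shared, and for Nid1, which was mainly a fibroblast transcript, because the data set this pair apart by cell type and both have bases in the RefSeq table (GRCm38.p6) that lie before any annotated transcript of the gene. The Hspg2 stretch is chr4:137468553-137468750, the 198 bases before the gene at chr4:137468751-137570630, and the Nid1 stretch is chr13:13437352-13437601, the 250 bases before the gene at chr13:13437602-13512275, both on the plus strand, 5′ to 3′, with GC boxes (GGGCGG or its reverse complement CCGCCC) in capitals.
Hspg2: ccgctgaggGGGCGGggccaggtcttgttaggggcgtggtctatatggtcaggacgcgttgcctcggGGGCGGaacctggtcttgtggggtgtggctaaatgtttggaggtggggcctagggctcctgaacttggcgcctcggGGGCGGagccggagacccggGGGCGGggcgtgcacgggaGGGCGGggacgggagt
Nid1: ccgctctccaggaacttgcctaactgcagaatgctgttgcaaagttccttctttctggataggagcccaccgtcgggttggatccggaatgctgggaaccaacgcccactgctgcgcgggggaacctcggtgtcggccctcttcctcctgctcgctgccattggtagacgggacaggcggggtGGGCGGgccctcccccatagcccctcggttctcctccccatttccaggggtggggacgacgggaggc
The Hspg2 stretch held 5 GC boxes and 70.2% G and C, and the Nid1 stretch held 1 and 64.4%. Of 32851 windows of 250 bases before start sites in the table, 32.7% held a GC box, and among the 7 of the 9 genes matched in the table (Lama4 and Lamc1 were not matched) 4 did.

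The remaining laminin chains and the linker Nid1 followed the fibroblasts. Lamb1, a laminin beta chain, measured 109 to 318 CPM in fibroblast-like cells, 49.4 to 96.5 CPM in endothelial cell-like cells and 11.6 to 25.6 CPM in mural cell-like cells, with no overlap between the 3 ranges. The mural values of Lamb1 came from only 30, 13 and 2 UMIs in the sham, TAC-2w and TAC-6w libraries. Endothelium was lower than fibroblasts by a log2 difference of -1.71 (SE 0.20, edgeR adjusted p = 7.48e-05) and mural cells by -3.87 (SE 0.29, edgeR adjusted p = 1.14e-05). Lamc1, the gamma chain found in most laminins, measured 278 to 620 CPM in fibroblast-like cells against 79.1 to 120 CPM in endothelial and 81.9 to 108 CPM in mural cell-like cells. The endothelial and mural levels of Lamc1 differed by -0.03 on the log2 scale (SE 0.29, edgeR adjusted p = 0.953). Nid1 measured 909, 947, 427 and 655 CPM in fibroblast-like cells, 153, 169, 211 and 141 CPM in endothelial cell-like cells, and 88.7, 74.8 and 53.8 CPM in mural cell-like cells. The mural values of Nid1 came from 104, 84 and 7 UMIs. The 3 ranges of Nid1 did not overlap, and Nid1 was lower in endothelium than in fibroblasts by a log2 difference of -2.21 (SE 0.26, edgeR adjusted p = 7.73e-05).

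Col15a1 measured 574, 646, 254 and 686 CPM in fibroblast-like cells and 36.5, 61.7, 55.0 and 82.9 CPM in endothelial cell-like cells, a log2 difference of -3.25 (SE 0.48, edgeR adjusted p = 0.000375). In mural cell-like cells its values were 118, 26.7 and 15.4 CPM, from 138, 30 and 2 UMIs, a spread as wide as their mean (53.3 CPM, SD 56.1, n = 3). The sham mural sum with 118 CPM also held the most fibroblast marker RNA (3394 CPM over 6 markers, against 822 in TAC-2w and 1383 in TAC-6w). Col1a1 lay at 1176 to 1925 CPM in fibroblast-like cells and at 10.5 to 23.1 CPM in endothelial cell-like cells.

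Against fibroblasts, mural cell-like cells had 6 of 9 genes called lower (Lama2, Lama4, Lamb1, Lamc1, Nid1 and Col15a1), where 16.5% of all genes were, and 0 of 9 called higher by edgeR, where 15.5% of all genes were. At an unadjusted p under 0.05, 7 of the 9 genes differed in that contrast, where 5279 of the 12573 genes tested did, and DESeq2 also called 0 of 9 higher. Against endothelium, mural cell-like cells had Lama2 called higher (1 of 9, all genes 17.6%) and Lamb1, Lama4, Hspg2 and Nid1 called lower (4 of 9, all genes 16.0%). Of these 4, only Lamb1 was still called without the TAC-2w library.

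**Figure D1:**
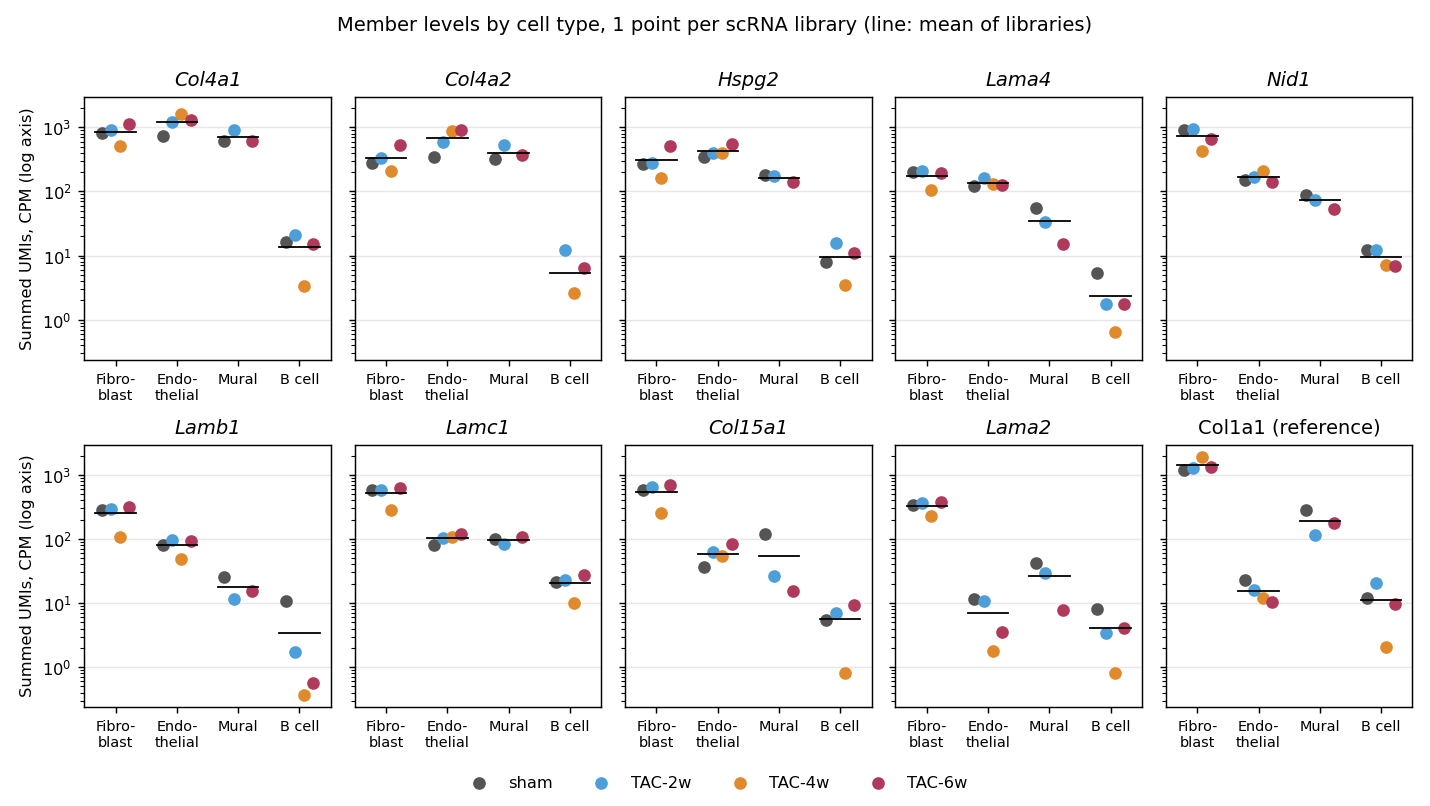
Level of each gene (CPM, log axis) in fibroblast-like, endothelial cell-like and mural cell-like cells, 1 point per library. Values of 0 are not drawn and the 7 mural cell-like cells of the TAC-4w library are left out. Col4a1, Col4a2 and Hspg2 have overlapping fibroblast and endothelial points, whereas Lama2 lies at 230 to 376 CPM in fibroblasts and at 1.79 to 11.7 CPM in endothelium.

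The share of cells with a UMI gave the same division, after each cell was thinned to 1000 UMIs. A UMI of Col4a1 was found in 48.5%, 65.1%, 70.1% and 65.4% of endothelial cell-like cells and in 49.95%, 53.3%, 36.0% and 58.7% of fibroblast-like cells. In B cell-like cells, which make no basement membrane, the share was 1.304%, 1.96%, 0.373% and 1.21%. Without thinning the endothelial shares of Col4a1 were 80.1% to 93.8%, and the median depth was 2979 to 7050 UMIs in endothelial cell-like cells and 1902 to 4349 UMIs in B cell-like cells. For Lama2 the share was 28.1%, 28.5%, 20.9% and 31.2% in fibroblast-like cells. It was 0.493% and 0.879% in endothelial cell-like cells of the sham and TAC-2w libraries, near the 0.435% and 1.31% of B cell-like cells there. Without thinning, these endothelial sums held 39 and 38 UMIs of Lama2. Of these, 34 and 26 lay in the endothelial sub-cluster led by Gsn, Ttn and Myh6 that is described below. The source of this Lama2 RNA was not tested. No endothelial cell-like cell had Lama2 in the TAC-4w and TAC-6w libraries after thinning (0 of 469 and 0 of 185 cells, which allow shares of up to 0.640% and 1.62%). Mural cell-like cells had Lama2 in 4.44% (exact 95% interval 1.22% to 10.99%) of 90 sham cells and in 14.1% (7.51% to 23.4%) of 85 TAC-2w cells. By mean share, 6 of 9 genes were highest in fibroblast-like cells and 3 in endothelial cell-like cells; without thinning the latter number was 0.

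Fibroblast-like cells held 82.0% to 99.0% of the UMIs of each of the 9 genes in the sham, TAC-2w and TAC-6w libraries. For Col4a1 their part of the UMIs of all named cells was 91.7%, 86.3%, 30.9% and 93.3% over the 4 libraries. In the TAC-4w library, with 432 fibroblast-like cells, endothelial cell-like cells held 67.7% of the Col4a1 UMIs and 61.2% of those of Hspg2. Lama2 stayed at 98.6% to 99.0% in fibroblast-like cells in all 4 libraries. These parts follow the number of cells captured, which need not be that of the tissue.

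Outside these classes Col4a1 and Nid1 were low in macrophage-like, T cell-like and B cell-like cells. Mean Col4a1 over the libraries was 12.4 CPM in macrophage-like, 13.02 in T cell-like and 13.8 in B cell-like cells. Cardiomyocyte-like and dividing cells had means of 109 and 173 CPM, with the highest library, TAC-6w, at 350 CPM for cardiomyocyte-like cells (11 cells) and 487 CPM for dividing cells (44 cells). Mean Nid1 was 734 CPM in fibroblast-like cells, 168 in endothelial and 72.4 CPM in mural cell-like cells, against 4.35 CPM in T cell-like, 6.36 in macrophage-like and 9.58 CPM in B cell-like cells. For Col15a1 the means of dividing (65.2 CPM, SD 92.3) and cardiomyocyte-like cells (58.4, SD 110) lay near those of endothelial (59.0) and mural cell-like cells (53.3). For Lama2 they were 28.2 (SD 36.8) and 26.8 CPM (SD 29.9), beside 6.93 in endothelial and 26.3 CPM in mural cell-like cells.

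A further 14 basement membrane components, 6 assembly or associated factors and 9 receptors were examined from lists that had been fixed with earlier results of these data known. Of the components, 4 of the 12 tested were called higher in endothelium than in fibroblasts (Lama5, Lama3, Col18a1 and Agrn), where 20.6% of all genes were, and 7 were called lower, where 25.2% were. Lama5, the other laminin alpha chain of vessels, differed by 5.52 and Lama3 by 6.32 on the log2 scale. Both were scarce, with Lama5 at 25.2 to 94.3 CPM and Lama3 at 8.78 to 28.6 CPM in endothelial cell-like cells. At the other end, the collagen chain Col4a6 differed by -5.76 and the laminin chain Lamc3 by -5.61. Among the factors, Tinagl1, a matrix protein of vessel walls, differed by 9.27 and Pxdn, the peroxidase that cross-links type IV collagen, by 1.08, and both were called higher in endothelium. Loxl2, a lysyl oxidase, differed by -4.83 and Ntn4, a netrin that binds laminin, by -1.62, and 2 of the 6 factors were called higher and 4 lower in that contrast, against the same shares of all genes.

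Receptors leaned to the vascular classes. Of 9 receptors, 6 were called higher in endothelial cell-like than in fibroblast-like cells, where 20.6% of all genes were, and 1, Dag1 (dystroglycan), was called lower, where 25.2% were, with a log2 difference of -0.59. The laminin receptor subunits Itga6 and Itgb4 differed by 6.65 and 5.94, and the median of the 9 receptors was 2.68. By edgeR, mural cell-like cells had 8 of 9 receptors called higher than fibroblasts, where 15.5% of all genes were, and 0 called lower, where 16.5% were. At an unadjusted p under 0.05 there were 9, beside 5279 of the 12573 genes tested. The laminin receptor Bcam differed by 6.74 and the muscle integrin Itga7 by 6.27. In the same contrast 4 of 12 components were called higher and 4 lower, with Lama5 at 6.53 and Col18a1 at 4.62 against Col4a3 at -5.03, and 1 of 6 factors was called higher (Tinagl1, 9.03) and 4 lower. Between mural and endothelial cell-like cells, 5 of 12 components, 2 of 6 factors and 5 of 9 receptors were called higher in mural cells, where 17.6% of all genes were, and 3, 1 and 2 lower, where 16.0% were.

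For each of the 9 genes, the genes most like it were taken by Pearson correlation of log2(CPM + 1) over the 45 sums and 12155 genes. Col4a1 was most like Sparc (0.969), which encodes a collagen-binding matricellular protein, and Col4a2 most like Hspg2 (0.955). Lama2 was most like the interstitial collagens Col6a2 (0.955) and Col3a1 (0.9504), and Col1a1 came next (0.945). Lamb1 and Nid1 were each other's closest gene (0.947). Col15a1 was most like the protease gene Adamts5 (0.914), Lama4 most like Ltbp4 (0.953) and Lamc1 most like Bmp1 (0.924). The sums share libraries and depth, and no p is given.

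Within endothelium the genes differed widely between sub-clusters. The class was clustered again without the same genes, and a sub-cluster was named only from fixed markers. Capillary endothelial-like cells (383 cells, led by Apln and Car4) held 2568 CPM of Col4a1, 1398 of Col4a2 and 650 of Hspg2. Arterial endothelial-like cells (302, led by Fbln5 and Gja5) held 1210, 716 and 282 CPM of these genes, and endocardial-like cells (291, with Npr3 among their leading genes) held 372, 140 and 258 CPM. Col4a1 was thus 6.90 times as high per UMI in capillary as in endocardial-like cells. Col15a1 was at 129 CPM in capillary-like cells but at 3.18 in arterial-like and 3.85 CPM in endocardial-like cells, a ratio of 40.5 between capillary and arterial-like cells. Another group of 206 cells led by Rasa4 and Prss23, with the venular adhesion genes Sele and Selp in its top genes, held 101 CPM of Col15a1 and 1039 CPM of Col4a1. Lama4 was at 216 CPM in capillary, 59.6 in arterial and 131 CPM in endocardial-like cells, and Lama2 stayed between 0.353 and 3.36 CPM in these named groups. A group of 502 cells led by Gsn, Ttn and Myh6, genes of fibroblasts and cardiomyocytes, had a median of 1274 UMIs and was unnamed; it held 1718 CPM of Col4a1 and 68.2 CPM of Lama2.

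Mural cell-like cells also split. Pericyte-like cells (56 cells, from the sham and TAC-2w libraries only, led by Colec11, Vtn and Kcnj8) had a median of 1117 UMIs and held 1890 CPM of Col4a1, 312 of Lama2 and 440 CPM of Nid1. The largest mural sub-cluster (127 cells, led by Tesc and Sorbs2, with Ly6c1, Podxl, Cdh5 and S1pr1, genes that endothelium expresses, in its top 10) held 719 CPM of Col4a1, 13.9 of Lama2 and 72.8 CPM of Nid1, and it was the only one with mural cell-like cells of the TAC-6w library (19 of 19). The part of endothelial RNA in it was not tested. The third group (39 cells, led by Ncam1, Dsp and Sost) held 197 CPM of Col15a1 and 94.7 CPM of Lama4, against 20.8 and 16.8 CPM in the largest. The pericyte-like cells also held 376 CPM of Col1a1, against 79.7 CPM in the largest sub-cluster, and the part of fibroblast RNA in their Lama2 was not tested.

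Among fibroblast-like cells the sub-clusters ranged widely. Sub-cluster 0 (3268 cells, led by Ret and Efhd1) had the highest Nid1 at 1261 CPM, Lamc1 at 818, Lama2 at 454, Lamb1 at 453 and Lama4 at 287 CPM. Activated fibroblast-like cells (2261 cells, with Cilp and Postn among the leading genes) had the highest Col4a1 at 1262 CPM, Col4a2 at 605, Hspg2 at 560 and Col15a1 at 792 CPM. Of them, 2071 came from the TAC-6w library, so that the cell state and that library cannot be told apart. The name rests on 3 of 6 activated markers detected, against 5 of 6 in the unnamed sub-cluster 5. At a resolution of 0.6 the levels did not follow the name. A group named activated (1170 cells) held 1353 CPM of Col4a1, another so named (275 cells) held 462 CPM, and Col15a1 was highest in an unnamed group (922 CPM). Sub-cluster 4 (663 cells, led by Gdf10) held the most Col1a1, 2949 CPM, together with 31.5 CPM of Lamb1 and 201 CPM of Nid1. For 8 of the 9 genes, all but Lama4, the lowest level was in sub-cluster 5 (480 cells, led by Wif1, Rspo3 and Chad), with 173 CPM of Col4a1 and 25.8 CPM of Lamb1 beside 1056 CPM of Col1a1. Fibrillar and basement membrane collagen thus had different orders over the sub-clusters.

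**Figure D2:**
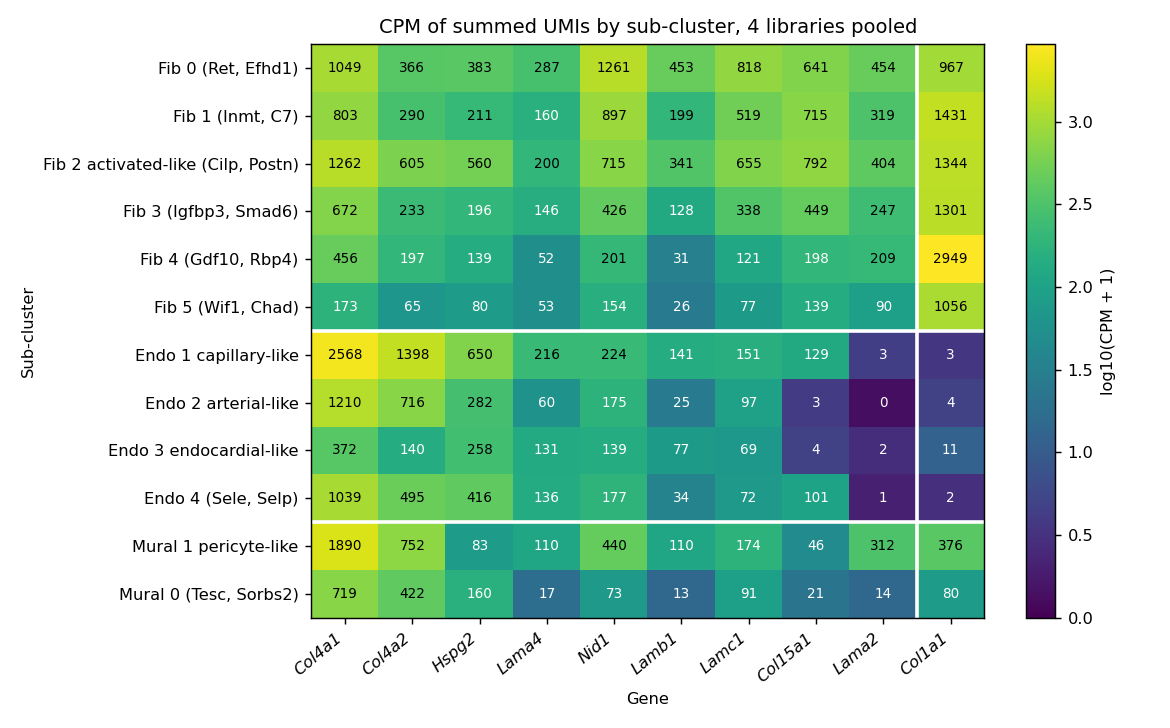
Level of each gene (CPM, log colour scale) in sub-clusters of fibroblast-like, endothelial cell-like and mural cell-like cells, with all libraries summed. The endothelial group led by Gsn, Ttn and Myh6 and the Ncam1-led mural group are not drawn. Neither are the smallest fibroblast and endothelial sub-clusters. Capillary endothelial-like cells have the highest endothelial Col4a1 (2568 CPM), and the Gdf10-led fibroblasts combine 2949 CPM of Col1a1 with 31.5 CPM of Lamb1.

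Levels were next set against sham within a class, as a description of 1 library per condition. A gene is counted as higher or lower where the ratio of CPM was at least 1.5, or at most its inverse, with at least 50 UMIs in either sum. The library batches in the labels are shared only by the sham and TAC-6w libraries, so that TAC-2w and TAC-4w libraries cannot be told apart from their batches. In fibroblast-like cells of the TAC-2w library 0 of 9 genes passed in either direction, against 3.72% of all genes, with ratios from 1.00 to 1.19. In the TAC-6w library, within the batch of sham, Col4a2 (ratio 1.88, 95% interval 1.83 to 1.92) and Hspg2 (1.93, 1.88 to 1.98) were higher, 2 of 9 against 7.32% of all genes. Nid1 had a ratio of 0.721 there, and Lama4 of 0.992. Different sub-clusters held most of the class in these libraries, since 72.1% of its TAC-6w cells were of the activated sub-cluster 2, against 2.72% in sham, and 4.98% were of sub-cluster 0, against 40.6%. Within sub-cluster 0 (143 cells against 1821) 0 of 9 genes passed, where 10.6% of its genes were higher and 13.7% lower. Sub-cluster 4 (70 cells against 228) had 3 of 9 higher, where 8.06% of its genes were, and 1 lower, where 25.2% were. Sub-clusters 1 and 5 (57 and 75 cells) each had 1 of 9 higher, where 13.8% and 6.34% of their genes were. Sub-clusters 3 and 5 each had 1 of 9 lower, where 18.0% and 22.1% were. Within sub-cluster 2 (2071 cells against 122) Hspg2 (1.74) and Lamb1 (1.62) were higher, 2 of 9 where 17.8% of its genes were.

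Fibroblast-like cells of the TAC-4w library had 7 of 9 genes lower than sham, against 8.20% of all genes. Their median ratio was 0.528, against 1.08 over all genes, while the ratio of Col1a1 was 1.64 (1.60 to 1.67). Lamb1 was lowest with 0.385 (0.357 to 0.416), followed by Col15a1 with 0.442 and Nid1 with 0.470. Lamc1, Lama4, Hspg2 and Col4a1 had ratios of 0.477, 0.528, 0.608 and 0.632, and Lama2 (0.677) and Col4a2 (0.750) did not pass. This library differed in makeup: 206 of its 432 fibroblast-like cells (47.7%) were of the Gdf10-led sub-cluster 4, against 5.09% in sham. Within sub-cluster 0 (63 cells against 1821) 0 of 9 genes passed, with Col4a1 at a ratio of 1.01, where 13.9% of its genes were higher and 10.0% lower. Within sub-cluster 1 (55 cells against 1497, led by Inmt and C7) 0 of 9 passed, where 14.5% were higher and 11.7% lower. Within sub-cluster 4 itself 5 of 9 genes were lower than in sham, where 11.2% of its genes were, with Lamb1 at 0.156 (29 UMIs against 72), Nid1 at 0.383 and Col15a1 at 0.473, whereas Col4a1 had 0.932 and Lama2 0.9496. With cells kept only under 5% mitochondrial UMIs, 0 of 9 genes were lower in the TAC-4w library.

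Over all cells of the class, endothelial cell-like cells had higher Col4a1 and Col4a2 than sham after TAC at each time. In the TAC-2w library Col4a1 (ratio 1.68, 1.60 to 1.77), Col4a2 (1.72, 1.60 to 1.85) and Col15a1 (1.69, 1.35 to 2.13) passed, 3 of the 8 genes with enough UMIs against 4.15% of all genes. In the TAC-4w library the same 3 of 8 genes passed with 2.19, 2.51 and 1.504, against 19.2% of all genes higher. Lamb1 was lower with 0.604, 1 of 8, near the 12.3% of all genes lower. In the TAC-6w library, within the batch of sham, 5 of 8 genes were higher, against 11.7% of all genes: Col4a2 (2.61), Col15a1 (2.27), Col4a1 (1.82), Hspg2 (1.60) and Lamc1 (1.52). Lama2 had under 50 UMIs in both sums of each comparison and could not be counted. The comparisons share the sham library, in which Col4a1 was lowest of the 4.

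The makeup of the endothelial class differed between libraries, and its part in these ratios was not tested. Capillary endothelial-like cells, the sub-cluster with the most Col4a1, were 13.2%, 17.7%, 30.1% and 36.4% of endothelial cell-like cells over the 4 libraries. These shares leave out the unnamed sub-cluster led by Gsn, Ttn and Myh6, whose best marker list was also the capillary one (6 of 6 detected). That sub-cluster was 35.2%, 49.4%, 6.64% and 7.58% of the class. Endocardial-like cells, with the least Col4a1 of the named groups, were 32.3%, 18.9%, 1.66% and 8.08%. Within capillary-like cells Col4a1 had ratios to sham of 1.16, 1.16 and 1.04, and did not pass at any time. Col15a1 passed in capillary-like cells of the TAC-2w library (1.53, 1.08 to 2.20, 136 UMIs against 44) and of the TAC-6w library (1.53, 1.00 to 2.34, 52 against 44), and no other of the 9 genes did. That was 1 of 8 genes with enough UMIs in TAC-2w, where 5.84% of the sub-cluster's genes were higher, and 1 of 7 in TAC-6w, where 11.1% were. In TAC-4w 0 of 8 passed, where 14.5% were higher and 2.53% lower. In the unnamed sub-cluster led by Gsn, Ttn and Myh6, which held 49.4% of the endothelial cell-like cells of the TAC-2w library and 35.2% of those of sham, Col15a1 was lower in TAC-2w (0.518, 0.350 to 0.767, 52 UMIs against 58), the only 1 of 8 genes to pass there, where 4.56% of its genes were lower. Within endocardial-like cells of the TAC-2w library Col4a1 had a ratio of 1.39 and 0 of 7 genes with enough UMIs passed, where 2.83% of its genes were higher and 2.85% lower.

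In mural cell-like cells only the TAC-2w library had 50 cells or more to set against sham. Col4a1 (ratio 1.505, 1.37 to 1.66) and Col4a2 (1.64, 1.43 to 1.87) were higher, and Col15a1 (0.227, 0.148 to 0.339) and Lama4 (0.603, 0.391 to 0.918) were lower, 4 of the 7 genes with enough UMIs against 17.7% of all genes in either direction. The sham mural sum held more fibroblast and red blood cell marker RNA (3394 and 10883 CPM) than the TAC-2w sum (822 and 1085 CPM), and their part in these ratios was not tested. The makeup differed too: the Ncam1-led group, the richest in Col15a1, was 31.4% of sham and 6.59% of TAC-2w mural cell-like cells, and the largest group was 39.0% and 65.9%. Within the largest group (41 and 60 cells) Col15a1 was at 56.2 CPM in sham and 3.06 CPM in TAC-2w (31 and 3 UMIs), and Lama4 was at 19.95 and 16.3 CPM. Within the Ncam1-led group (33 and 6 cells) Col15a1 was at 189 and 241 CPM and Lama4 at 85.3 and 145 CPM.

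**Figure D3:**
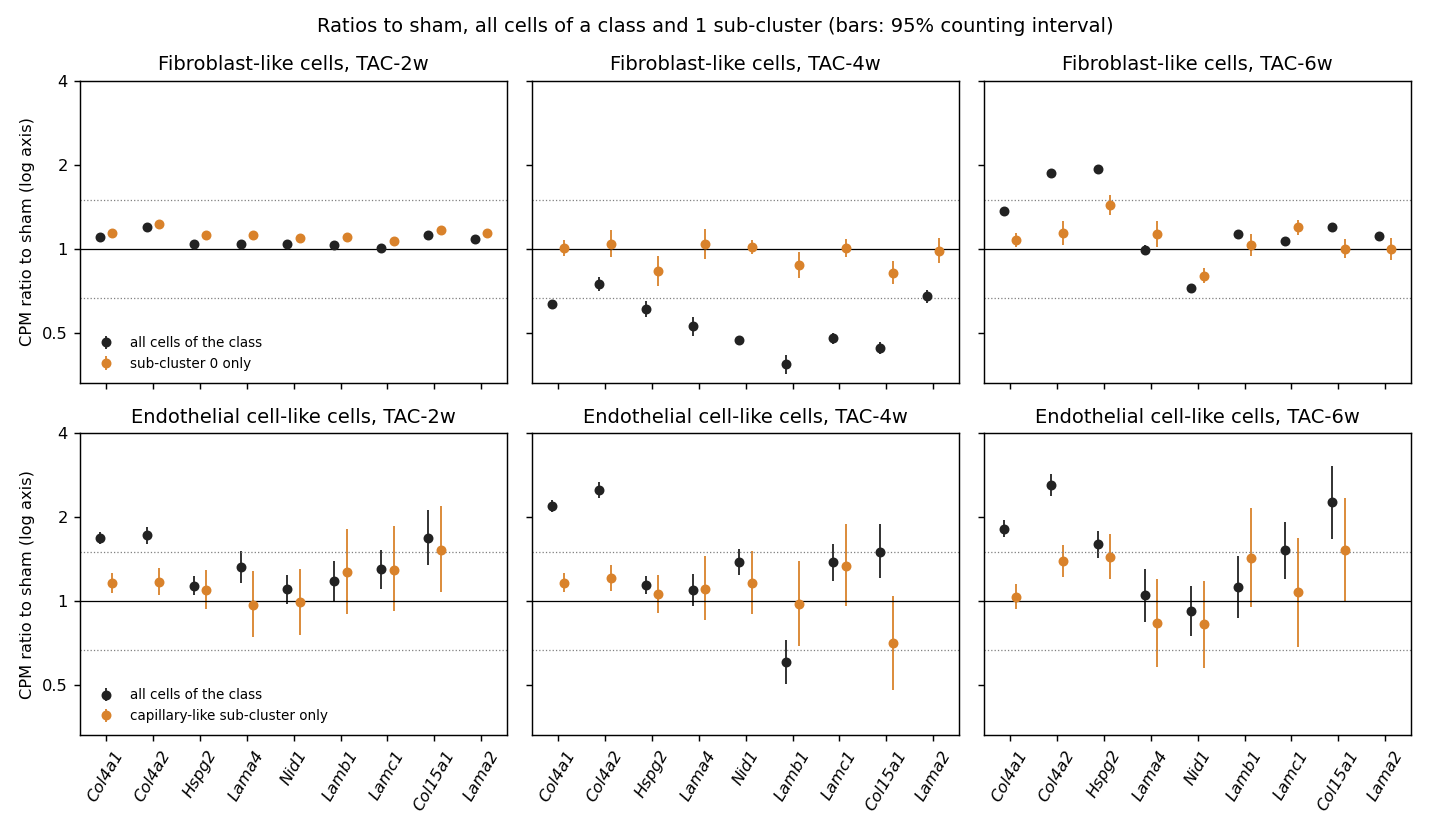
Ratio of CPM to sham (log axis) for the 9 genes in fibroblast-like and endothelial cell-like cells, with exact 95% intervals from counting error. Black points are all cells of the class. Orange points are sub-cluster 0 of the fibroblast-like cells or the capillary endothelial-like sub-cluster only. Endothelial Lama2 is not drawn because it had under 50 UMIs. Over all fibroblast-like cells the TAC-4w points of the 9 genes lie between 0.385 and 0.750. Over all endothelial cell-like cells Col4a1 and Col4a2 lie between 1.68 and 2.61.

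Of the other basement membrane genes, endothelial cell-like cells had Col4a3, Col4a4 and Col4a5 lower than sham at all 3 times and Lama5 and Lamb2 higher in the TAC-4w and TAC-6w libraries. Of components with enough UMIs, 3 of 8, 4 of 9 and 3 of 8 were lower over the 3 times, where 3.53%, 12.3% and 23.0% of all genes were. In TAC-4w and TAC-6w 3 of 9 and 2 of 8 were higher, where 19.2% and 11.7% of all genes were. Of 8 receptors, 4 were higher and 1 lower in TAC-4w, 2 higher and 1 lower in TAC-6w, and 0 higher and 3 lower in TAC-2w. In fibroblast-like cells of the TAC-4w library Pxdn and Loxl2 were lower, as were Lamb3 and Nid2, while the receptor genes Itga1, Itga6 and Bcam were higher. There 2 of 6 factors and 3 of 11 components were lower, where 8.20% of all genes were. Higher were 3 of 6 receptors and 1 of 11 components (Lamc3), where 13.1% of all genes were. These comparisons share the sham library and the same differences in makeup.

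In the tissue sections all 9 genes were detected in every section. In a section, fewer cells of a type and less RNA per cell cannot be told apart. Col4a1 measured 195, 186, 180 and 438 CPM over the sections, from sham to TAC-6w, and Col4a2 measured 126, 130, 131 and 278 CPM. On this scale the first 3 sections lay close together and the TAC-6w section lay above them for both chains. With mitochondrial and rRNA-like genes left out of the total, Col4a1 measured 405, 330, 312 and 788 CPM. Col4a2 then measured 262, 231, 228 and 501 CPM, so that sham lay above TAC-2w and TAC-4w for both chains. Hspg2 was at 121, 92.4, 90.9 and 184 CPM, lowest in TAC-2w and TAC-4w. Among the laminin chains, Lamc1 was at 69.4, 56.9, 60.4 and 98.6 CPM, Lama2 at 45.6, 47.3, 43.9 and 66.5 CPM, and Lamb1 at 45.1, 41.9, 39.8 and 69.9 CPM. Lama4 was at 29.8, 25.1, 22.1 and 48.1 CPM, and Nid1 at 50.7, 46.8, 38.0 and 72.4 CPM. Col15a1 varied most, with 39.4, 35.3, 15.0 and 99.8 CPM.

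Against the sham section, with the same rule of 1.5, 0 of 9 genes passed in the TAC-2w section, which shares its batch with sham, where 8.21% of all genes passed in either direction. In the TAC-4w section Col15a1 was lower (0.380, 0.340 to 0.424), 1 of 9 against 2.50% of all genes, and Col1a1 was lower too (0.623). The median ratio of the 9 genes was 0.870 there, against 1.16 over all genes. In the TAC-6w section 6 of 9 genes were higher, against 17.6% of all genes: Col15a1 (2.53), Col4a1 (2.24), Col4a2 (2.20), Lama4 (1.62), Lamb1 (1.55) and Hspg2 (1.52). Their median was 1.55 over the 9 genes against 1.24 over all genes, and Col1a1 had 2.72. With mitochondrial and rRNA-like genes left out of the total, or with ratios divided by the median of all genes, 3 of 9 passed in the TAC-6w section and 4 of 9 were lower in the TAC-4w section. The share of all genes is not given for these settings, which shift every gene. The TAC-4w and TAC-6w sections are each the only section of their batch, so that condition and batch cannot be told apart. The summed level of 6 endothelial markers was 1222, 1168, 1608 and 2126 CPM over the sections and that of 6 fibroblast markers 1627, 1478, 2126 and 1920 CPM, and their part in the values was not tested.

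**Figure D4:**
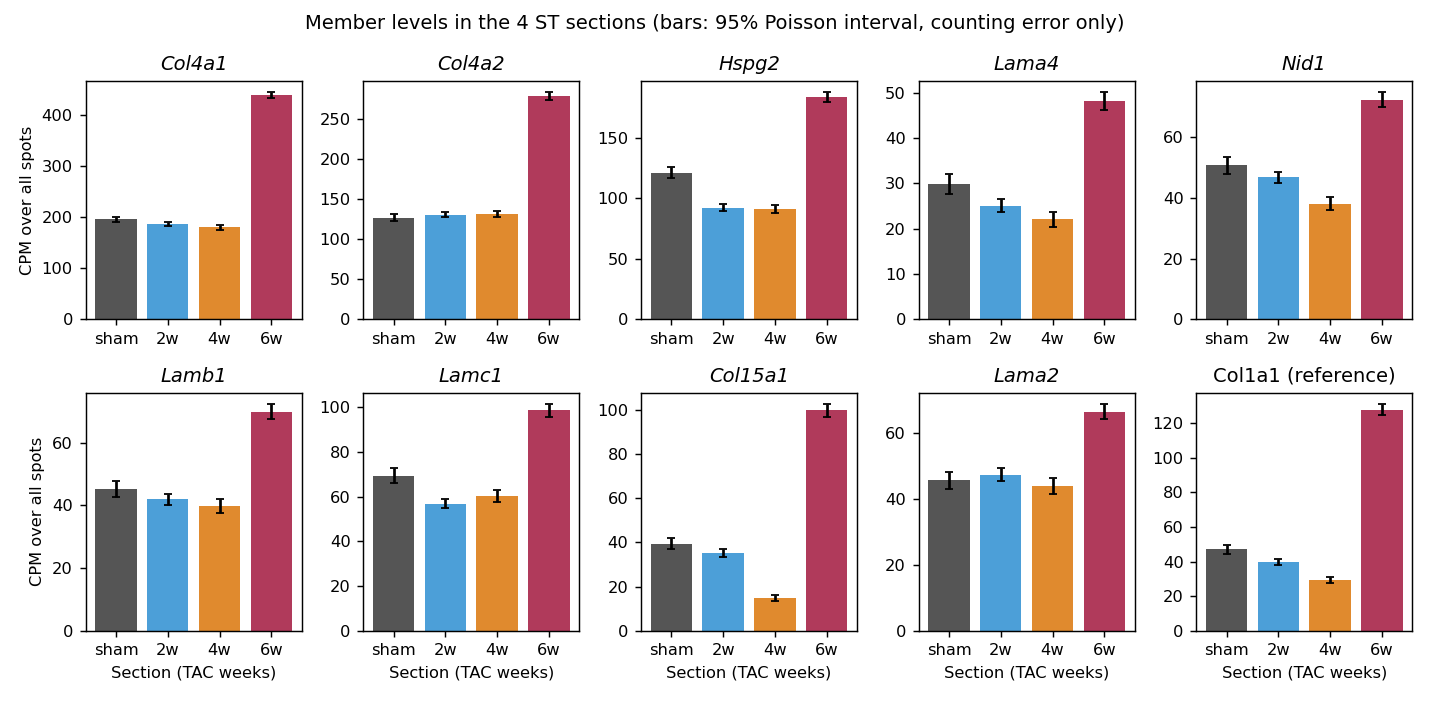
CPM of each gene in the 4 sections, with bars starting at 0 and exact 95% Poisson intervals for counting error. The TAC-6w bars are the highest for all 9 genes, and Col15a1 has its lowest bar (15.0 CPM) in the TAC-4w section.

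Of the further genes, 6 of 11 components with enough UMIs were higher in the TAC-6w section (Col4a3, Col4a4, Col4a5, Col18a1, Nid2 and Agrn), where 17.6% of all genes were. So were 3 of 6 factors, Sparc (2.38), Loxl2 (2.27) and Pxdn (1.75), and 2 of 9 receptor genes, Itga1 and Itga6. In the TAC-4w section Serpinh1, the collagen chaperone, was lower (0.514), as was Pxdn (0.526), 2 of 6 factors against 2.50% of all genes, while Col4a5 and Lamb3 were higher there and in the TAC-2w section. Those were 2 of 9 components with enough UMIs in TAC-4w and 2 of 10 in TAC-2w, where 15.2% and 4.95% of all genes were higher.

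Position was examined by setting the 10% of spots of a section richest in the markers of a cell type against its other spots, and a gene is counted where the ratio passed 1.5 in 4 of 4 sections. In spots rich in fibroblast markers 3 of 9 genes were higher, against 3.18% of all genes. Col15a1 had ratios of 3.10, 2.19, 2.93 and 1.88 over the 4 sections, Lamc1 had 1.99, 1.70, 2.01 and 1.62, and Nid1 had 1.96, 1.91, 1.96 and 1.67. Lama2 came close with 1.92, 1.48, 1.89 and 1.75. Col4a1, carried by several cell types in the scRNA libraries, had 1.57, 1.26, 1.47 and 1.31, and Col1a1 had 2.99, 2.41, 3.15 and 2.07. The fibroblast-rich spots also held more mural markers, with ratios of 1.99, 1.27, 1.64 and 1.38 over the 4 sections. Their median UMIs per spot were 19970, 25076, 29129 and 28656, against 14973, 24452, 27336 and 18800 in the other spots.

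In spots rich in endothelial markers 0 of 9 genes passed, against 0.0579% of all genes, and the markers themselves were 1.62 to 1.77 times as high there. Col4a1 had ratios of 1.39, 1.27, 1.24 and 1.33, above 1 in 4 of 4 sections. Mural-rich spots had 0 of 9 genes, against 1.33% of all genes, and Col15a1 had 2.11, 1.36, 2.15 and 1.304 in them, beside fibroblast markers at 1.32 to 1.83 times their level elsewhere. Cardiomyocyte-rich spots had 0 of 9, against 0.0193%, with Col4a1 between 0.893 and 1.10. The cardiomyocyte markers themselves were only 1.12 to 1.21 times as high there, below the ratio asked of a gene. The count of 0 therefore cannot tell whether the genes are scarce in cardiomyocyte regions. In the TAC-6w section these spots also held fewer UMIs (median 7423 against 20984.5). Spots at the edge of the tissue had 0 of 9, against 0.309%, with Col15a1 at 0.463, 0.718, 1.08 and 0.796. Few of all genes passed in endothelial-rich, mural-rich and edge spots. A count of 0 there therefore cannot set the 9 genes apart from the rest.

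**Figure D5:**
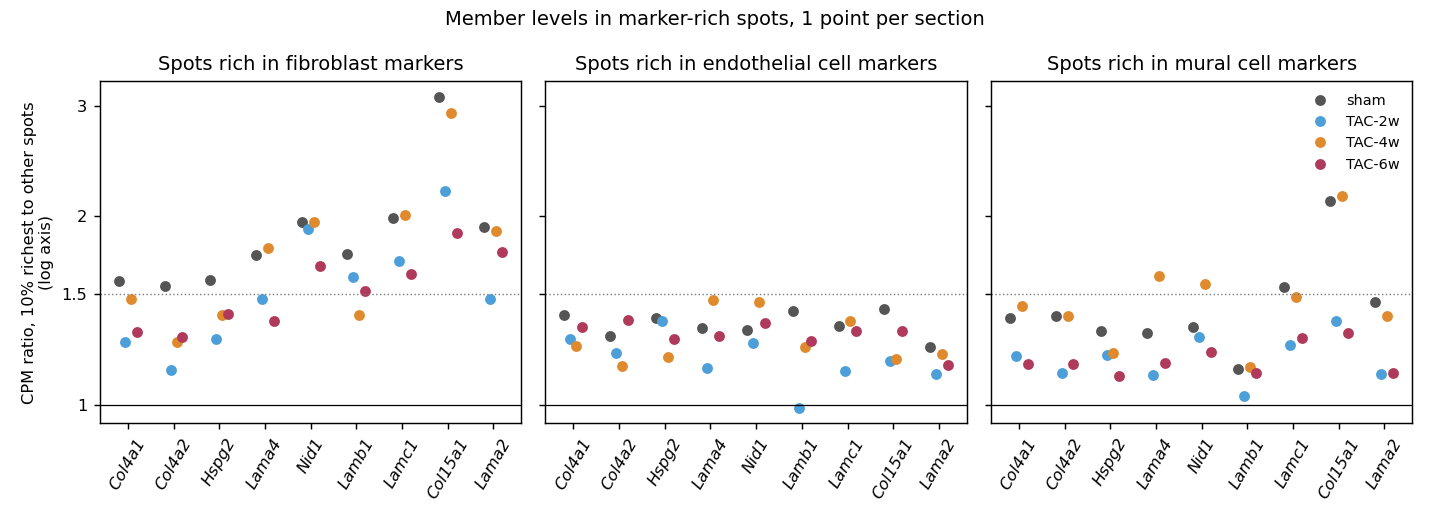
Ratio of CPM in marker-rich spots over the other spots of a section (log axis), 1 point per section, for each gene and cell type list. In fibroblast-rich spots the Col15a1, Lamc1 and Nid1 points all lie at or above 1.62, and in endothelial-rich spots the points of all 9 genes lie between 0.989 and 1.47.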

How the data were processed

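Counts were taken as the authors deposited them: UMI counts per gene and barcode for 4 scRNA libraries and per gene and spot for 4 Visium ST sections, 1 of each per condition. The submitters' processing notes list Cell Ranger 7.0.0, Space Ranger 1.3.1 and mm10; the file headers name other releases. The deposited spot positions were used to keep spots over tissue. Per cell, 200 to 6000 genes, 500 to 30000 UMIs and under 15% mitochondrial UMIs were required, after the filters of the study. Doublets were scored with Scrublet through scanpy 1.11.5 (not the caller of the study) and the highest 3.2% per library were removed. Cells were merged and clustered in Seurat 5.3.0 (3000 variable genes, 30 components, resolution 0.25; sub-clusters with 20 components, resolution 0.3) and named "-like" from fixed markers. The names are rebuilt and may differ from those of the study.

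UMIs were summed by class and library (at least 10 cells) and tested with edgeR 4.0.16 (quasi-likelihood test, TMM, filterByExpr, Benjamini-Hochberg adjustment over all genes tested) with library as a term. Each library is 1 replicate, and the labels do not tell whether it pools animals. Since the classes of 1 library come from the same preparation, the library term was taken from the design and not from the data. Scripts were tested on simulated data. Intervals cover counting error only: conditional binomial for ratios, exact Poisson for CPM and exact Clopper-Pearson for shares; a count of 0 was given an upper limit of 3 counts. All 9 genes, Col1a1 and the genes of the 3 lists were described by rule, with values for the extremes of each list; the values of 1 listed gene are not reported here. The genes and lists were chosen with earlier results of these data known, and the weighting used to name clusters, the demand of a leading marker for sub-clusters and 3 alternatives were chosen after seeing the data. Alternatives covered clustering, integration, doublets, filters, naming, tool, scaling and thresholds.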

Additional observations from a re-analysis of the deposited data

Results flagged for a closer look

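In the TAC-4w library Col4a1 was at a ratio to sham of 0.632 in fibroblast-like cells and of 2.19 in endothelial cell-like cells, opposite directions under the same comparison. Within sub-clusters the values lay closer together, with Col4a1 at 1.01 in sub-cluster 0 of the fibroblast-like cells and at 1.16 in capillary endothelial-like cells. Col15a1 was at 0.442 in fibroblast-like and at 1.504 in endothelial cell-like cells of that library, and within the same sub-clusters it was at 0.821 and 0.705. Fibroblast sub-cluster 4 held 206 of the 432 fibroblast-like cells of that library. Within it 5 of 9 genes, Col15a1 among them, were lower than sham, where 11.2% of its genes were. In the TAC-2w library Col15a1 was at 0.227 in mural cell-like cells and at 1.69 in endothelial cell-like cells. The mural group richest in Col15a1, led by Ncam1, was 31.4% of the mural cell-like cells in sham and 6.59% in TAC-2w, and in the largest endothelial sub-cluster of TAC-2w, led by Gsn and Ttn, Col15a1 was lower than sham with 0.518. With 1 library per condition these differences between cell types were not tested, and the condition cannot be told apart from the batch in either library.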

How the results depend on the processing

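Each per-gene difference between cell types was compared with its main fit under each alternative. Of these comparisons, 377 kept their direction and side of the threshold, 14 lost the call, 8 gained it and 15 turned sign. The 377 include comparisons without a call in either fit. The causes were not tested unless stated. The single call higher in endothelium than in fibroblasts (Col4a2) went to 0 with RPCA integration, with called doublets kept, with cells under 5% mitochondrial UMIs, with sub-clusters led by genes of other cells left out, and with no replicate block, and lay between 0 and 1 when each library was left out. The fit with no replicate block, that is without the pairing of classes by library, moved no other count of calls past 1.5 times. Counts of genes lower ran from 5 to 6 (endothelium against fibroblasts), 6 to 7 (mural against fibroblasts) and 1 to 5 (mural against endothelium) without 1 library, the last being 1 without TAC-2w; higher in mural than in endothelium the count was 0 with doublets kept and 2 with naming by each cell's own score. With under 5% mitochondrial UMIs mural cells formed no cluster, so that mural contrasts could not be fitted there.

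Turned signs were few and near 0 in most cases. Endothelium against fibroblasts, Col4a1 gave -0.34 and Hspg2 -0.076 with under 5% mitochondrial UMIs. Mural against fibroblasts, Col4a1 gave 0.14 without TAC-6w (-0.40 to 0.14 without 1 library) and Col4a2 -0.26 with the own score. Mural against endothelium, Col15a1 gave -0.069 with RPCA, -0.51 with doublets kept, -0.30 with DESeq2, -0.0027 with DESeq2 size factors and -1.49 without sham (-1.49 to 0.45 without 1 library; adjusted p = 0.0358 in edgeR, against 0.987 with all libraries); Lamc1 gave 0.50 with the own score, 0.0087 without TAC-2w, 0.15 without TAC-4w (-0.31 to 0.15 without 1 library), 0.071 with mixed sub-clusters left out and 0.10 with no replicate block; and Nid1 gave 0.20 with the own score.

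Counts against sham moved as follows. In fibroblast-like cells the 7 lower genes of TAC-4w became 0 within sub-cluster 0 and 0 under 5% mitochondrial UMIs, the 2 higher genes of TAC-6w became 0 within sub-cluster 0, and the lower fold threshold tried gave 1 lower gene in TAC-6w. Within fibroblast sub-cluster 4, by contrast, 5 genes were lower in TAC-4w and 3 were higher in TAC-6w. In endothelial cell-like cells the higher genes became 1, 0 and 1 within the capillary-like sub-cluster (TAC-2w, TAC-4w, TAC-6w), 0, 1 and 1 by the mean of the cells' CPM, 5 and 5 at the lower fold threshold in TAC-2w and TAC-4w, and in TAC-6w 3 with doublets kept and 1 in cells thinned to 1000 UMIs. Lower genes became 0 within the capillary-like sub-cluster, 2 with doublets kept and 0 after thinning in TAC-4w, and 1 with doublets kept in TAC-6w. In mural cell-like cells the 2 higher genes became 1 with doublets kept, 0 with the own score, 1 after thinning and 1 by the mean of the cells' CPM, and the 2 lower genes became 1 with the own score and 0 after thinning. In the sections, leaving out mitochondrial and rRNA-like genes gave 1 lower gene in TAC-2w, 4 lower in TAC-4w and 3 higher in TAC-6w, dividing by the median ratio gave 4 and 3 in the last 2, and the lower fold threshold gave 1 lower in TAC-2w and 4 lower in TAC-4w. The lower fold threshold gave 8 genes in fibroblast-rich, 1 in endothelial-rich and 1 in mural-rich spots. The share of all genes is not given at the lower fold threshold, so none of its counts can be set against all genes. Without thinning 0 genes had their highest share of cells in endothelium.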
